A study of Homo sapiens with 3 samples.

Results

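The immunoproteasome genes described here are 5 genes: PSMB8, PSMB9 and PSMB10, which encode its inducible catalytic subunits, and PSME1 and PSME2, which encode the α and β chains of the PA28 activator. They were taken by symbol from the 19912 features of the deposited matrices and are set beside PSMB5, PSMB6 and PSMB7, the constitutive catalytic subunits that PSMB8, PSMB9 and PSMB10 replace. The cells were HCT116 H2B-GFP, a human colorectal carcinoma line that carries a green fluorescent histone, grown on an organ-on-chip with a top and a bottom channel and sorted for GFP before droplet 3′ single-cell RNA-seq. There were 3 libraries: cells from the bottom channel of stretched chips, which the labels call invaded (stretched bottom), cells from the top channel of stretched chips, called non-invaded (stretched top), and top-channel cells of chips without stretch (not stretched top). Stretch, a cyclic strain that stands for peristalsis, lasted 6 days. The comparisons ask what differs between invaded and non-invaded cells under stretch, and between top cells with and without it. All groups are the same line, each group is 1 library, and nothing says how many chips went into it. No bottom library without stretch was analysed here, so channel and stretch cannot be told apart in the comparison of the stretched bottom with the not stretched top.

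The proteasome is the barrel-shaped protease that degrades ubiquitin-tagged proteins, and its catalytic sites lie in β subunits inside the barrel. Interferons, above all interferon gamma, induce replacements for these subunits, and the resulting immunoproteasome tends to cut proteins into peptides that fit MHC class I molecules. PA28, a ring of PSME1 and PSME2 chains, caps the barrel and helps peptides leave it. PSMB8 and PSMB9 lie in the MHC class II region, next to the TAP1 and TAP2 genes, whose products carry peptides into the endoplasmic reticulum.

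After filtering, the libraries held 1951 stretched bottom cells with 76641034 UMIs, 20121 stretched top cells with 210814252 and 17206 not stretched top cells with 212503735. The bottom cells were deeper, with a median of 40387 UMIs per cell against 9384 and 10964 in the stretched and not stretched top cells, and had a lower median mitochondrial share, 4.09% against 10.4% and 9.64%. All 10 epithelial markers reached 1 CPM in each library, summing to 5171 CPM in stretched bottom cells, 4798 in stretched top cells and 4828 in not stretched top cells. The 10 leukocyte markers summed to 5.38, 6.41 and 7.09 CPM in the same order, with CD3E and MS4A1 at 0 in the bottom library. The 8 endothelial markers summed to 7.99 CPM in the bottom library, where 4 of them reached 1 CPM, against 2.21 and 2.55 CPM in the stretched and not stretched top, with CLDN5 at 0 in the stretched top. Kept cells shared 9 barcodes between the stretched bottom and stretched top libraries, 6 between the stretched bottom and not stretched top, and 88 between the 2 top libraries, at most 0.511% of the smaller library.

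Promoter windows of the 5 members are printed to show matches to a sequence element through which interferon-activated factors act. The PSMB9 window has no match. Each window runs from 250 bases before to 50 bases after a RefSeq transcription start in GRCh38.p14 and is written 5′ to 3′ on the gene's strand. Capitals mark a match to the core of the interferon-stimulated response element (ISRE), searched as 2 copies of GAAA with any 2 bases between them, on both strands. PSMB8 and TAP1 have 2 windows each, of which the one with a match is shown.
PSMB8, chr6:32843998-32844297, minus strand: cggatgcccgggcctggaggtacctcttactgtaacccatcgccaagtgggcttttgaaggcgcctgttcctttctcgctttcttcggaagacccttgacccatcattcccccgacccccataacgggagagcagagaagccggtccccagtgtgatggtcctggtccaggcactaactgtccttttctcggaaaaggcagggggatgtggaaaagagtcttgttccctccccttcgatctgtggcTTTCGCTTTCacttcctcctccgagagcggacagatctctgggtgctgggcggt
PSMB9, chr6:32853942-32854241, plus strand: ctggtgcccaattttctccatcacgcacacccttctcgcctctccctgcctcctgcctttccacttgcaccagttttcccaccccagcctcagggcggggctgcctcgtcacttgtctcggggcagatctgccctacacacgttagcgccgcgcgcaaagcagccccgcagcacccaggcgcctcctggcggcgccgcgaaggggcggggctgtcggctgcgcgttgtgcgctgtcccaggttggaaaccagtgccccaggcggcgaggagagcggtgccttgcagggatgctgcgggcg
PSMB10, chr16:67936801-67937100, minus strand: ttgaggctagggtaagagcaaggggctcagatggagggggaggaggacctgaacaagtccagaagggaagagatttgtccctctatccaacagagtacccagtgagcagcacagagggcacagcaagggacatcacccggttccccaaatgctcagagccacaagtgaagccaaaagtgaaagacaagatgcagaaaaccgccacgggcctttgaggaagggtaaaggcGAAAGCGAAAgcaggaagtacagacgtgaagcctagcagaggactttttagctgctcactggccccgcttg
PSME1, chr14:24135944-24136243, plus strand: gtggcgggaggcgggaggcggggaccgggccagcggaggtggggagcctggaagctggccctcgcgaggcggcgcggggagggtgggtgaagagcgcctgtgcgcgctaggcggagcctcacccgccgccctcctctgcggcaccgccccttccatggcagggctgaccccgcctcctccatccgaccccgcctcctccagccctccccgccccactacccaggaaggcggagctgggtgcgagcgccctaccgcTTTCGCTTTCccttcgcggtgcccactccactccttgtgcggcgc
PSME2, chr14:24146561-24146860, minus strand: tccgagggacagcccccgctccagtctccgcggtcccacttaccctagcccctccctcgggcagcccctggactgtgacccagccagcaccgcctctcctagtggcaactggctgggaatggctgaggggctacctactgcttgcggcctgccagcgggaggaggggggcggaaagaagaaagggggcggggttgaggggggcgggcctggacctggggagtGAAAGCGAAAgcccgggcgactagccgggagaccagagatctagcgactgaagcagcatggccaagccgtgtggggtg
TAP1, chr6:32853655-32853954, minus strand: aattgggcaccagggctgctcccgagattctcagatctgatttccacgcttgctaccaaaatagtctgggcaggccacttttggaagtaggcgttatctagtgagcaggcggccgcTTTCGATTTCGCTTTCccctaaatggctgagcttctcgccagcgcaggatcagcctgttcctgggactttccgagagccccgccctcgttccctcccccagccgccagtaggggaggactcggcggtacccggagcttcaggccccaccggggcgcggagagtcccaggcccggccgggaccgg

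The letters GAAAGCGAAA, on one strand or the other, stand in the PSMB8, PSMB10, PSME1 and PSME2 windows shown. They lie between 28 bases before and 14 bases after the start. Of 35116 promoter windows of the same length, 1255 (3.57%) hold the ISRE core. The PSMB9 window holds none. TAP1, shown because it starts beside PSMB9 on the opposite strand and its window overlaps that of PSMB9, holds 2 overlapping matches 134 to 119 bases before its own start. The interferon-gamma-activated sequence, searched as TTCNNNGAA on both strands, occurs in 2689 windows (7.66%) and, among the members, in the PSMB8 window shown, starting 65 bases before the start. Both PSMB5 windows lack the ISRE core and one holds TTCNNNGAA. A match is a string of letters and not a measured binding site.

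Between stretched bottom and stretched top cells, the members did not move as a unit. PSMB9 and PSME1 were lower in the bottom cells, PSMB10 was higher, and PSME2 and PSMB8 lay within 1.5-fold on the scale used. That scale is the log2 ratio of CPM (UMIs per 1000000 of the library) with 1 CPM added, and a gene is counted past a threshold of 1.5-fold if it reached 10 CPM in either library, as 4 of the 5 members did. PSMB8 did not. Of those 4, 2 were lower and 1 higher. Over all 8870 genes at that level 11% were lower and 7.93% higher, with a median log2 ratio of -0.00, against -0.58 for the 4 members. With library totals taken without mitochondrial and ribosomal protein genes, 1701 genes were lower and 394 higher, where 977 and 703 were with full totals. With 1 library a group there is no test, and all intervals are 95% and cover counting error only. UMIs tag each transcript near its 3′ end, so CPM is not divided by length. Levels of different genes are set side by side on that scale, but genes may not be counted equally fully. Shares between genes are therefore shares of UMIs and not of transcripts.

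PSMB9 encodes β1i, which takes the place of PSMB6 in the barrel. It had 743 UMIs among stretched bottom cells, 9985 among stretched top cells and 14295 among not stretched top cells. Its level was 9.69 CPM (9.01 to 10.4) in stretched bottom cells, 47.4 CPM (46.4 to 48.3) in stretched top cells and 67.3 CPM (66.2 to 68.4) in not stretched top cells. The 3 intervals do not overlap. Its log2 ratio of bottom to stretched top was -2.18, and only 37 of the 8870 genes had a lower one. PSMB6 went the other way, with 468 CPM (464 to 473) in bottom cells, 325 CPM (323 to 328) in stretched top cells and 340 CPM (338 to 343) in not stretched top cells, which is within 1.5-fold (log2 ratio 0.52). As a share of the summed UMIs of PSMB9 and PSMB6, PSMB9 made up 2.03% (1.89 to 2.18) among bottom cells, 12.7% (12.5 to 12.9) among stretched top cells and 16.5% (16.3 to 16.8) among not stretched top cells. This share needs no scaling by library size.

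PSMB10 encodes β2i, the partner of PSMB7, and was the 1 member past the threshold upwards in the bottom cells. It had 3178 UMIs among stretched bottom cells, 2601 among stretched top cells and 2631 among not stretched top cells. These give 41.5 CPM (40.04 to 42.9) in bottom cells, 12.3 CPM (11.9 to 12.8) in stretched top cells and 12.4 CPM (11.9 to 12.9) in not stretched top cells. The top libraries overlap and the bottom library lies apart from both, 3.36-fold above the stretched top (3.19 to 3.54). Of the 8870 genes, 8852 had a lower ratio. PSMB7 had 245 CPM (241 to 248), 199 CPM (197 to 201) and 230 CPM (228 to 232) in the stretched bottom, stretched top and not stretched top cells. PSMB10's share of the pair was 14.5% (14.0 to 15.0) among bottom cells, 5.83% (5.62 to 6.06) among stretched top cells and 5.10% (4.91 to 5.29) among not stretched top cells.

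The count of PSMB10 is uncertain, because 64.4% of its last 1000 exonic bases are shared, on the same strand, with AC040162.1, another counted gene of GENCODE 29. AC040162.1 moved the same way, with 8.01 CPM in bottom cells, 1.99 in stretched top and 1.90 in not stretched top cells, and the 2 genes summed to 49.5, 14.3 and 14.3 CPM in that order. Genes that share much of their 3′ end with a counted neighbour were often higher in the bottom library. Of 84 genes with at least 50% shared, 30 (35.7%) were at least 1.5-fold higher in bottom than in stretched top cells, and of 8786 genes with less than 50% shared, 673 (7.66%) were. Between the top libraries none of 72 genes with at least 50% shared was higher and 1 was lower. Of 9047 genes with less shared, 0.177% were higher and 0.586% lower there, so 0 of 72 says little. The part of the shared 3′ ends in the PSMB10 value was not tested. None of the last 1000 exonic bases of PSMB8, PSMB9, PSME1 or PSME2 is shared with a counted gene on the same strand.

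PSMB8 encodes β5i, which replaces PSMB5, and was barely detected. It had 34 UMIs among stretched bottom cells, 156 among stretched top cells and 272 among not stretched top cells. Its level was 0.444 CPM (0.307 to 0.620) in bottom cells, 0.740 CPM (0.628 to 0.866) in stretched top cells and 1.28 CPM (1.13 to 1.44) in not stretched top cells. The not stretched top library was the highest, and the bottom and stretched top intervals did not overlap. Without the added 1 CPM, the bottom stood 1.67-fold below the stretched top (1.15 to 2.49). Of the 34 bottom UMIs, 19 lay in 32 cells that held at least 2 UMIs of the endothelial markers, a cell set chosen after the data were seen. PSMB8 stood at 11.3 CPM in those 32 cells and at 0.2001 CPM in the bottom cells without them. In the stretched and not stretched top libraries the same step took out 43 and 58 cells with 1 PSMB8 UMI each time. The levels of PSMB9, PSMB10, PSME1 and PSME2 in the bottom library without those cells were 9.68, 41.5, 110.2 and 219 CPM. PSMB8 was a small part of its pair with PSMB5, at 0.133% among bottom cells, 0.246% among stretched top cells and 0.417% among not stretched top cells. PSMB5 itself had 332 CPM in bottom cells, 300.3 CPM in stretched top cells and 306 CPM in not stretched top cells.

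**Figure D1:**
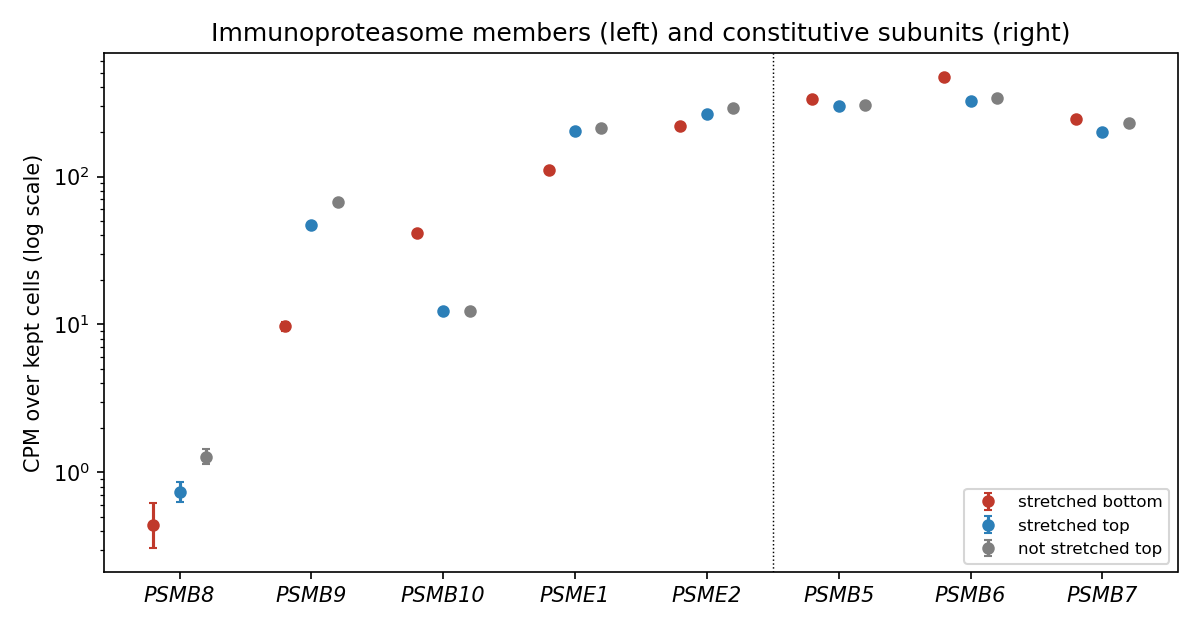
CPM (log scale) of the 5 immunoproteasome genes and of the 3 constitutive catalytic subunits in each library, with exact Poisson 95% intervals that are mostly smaller than the points. PSMB9 is lowest in the stretched bottom library at 9.69 CPM, PSMB10 has its highest value there at 41.5 CPM, and each constitutive subunit stays within 1.5-fold across the libraries.

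The 2 genes of the PA28 ring differed from each other. PSME1 encodes the α chain and was lower in the bottom, with 109.9 CPM (107.5 to 112.2) in stretched bottom cells, 202 CPM (201 to 204) in stretched top cells and 214 CPM (212 to 216) in not stretched top cells. The bottom library lay below both top libraries, 1.84-fold below the stretched top (1.80 to 1.89). PSME2 encodes the β chain and had 219 CPM (216 to 223) in bottom cells, 266 CPM (264 to 269) in stretched top cells and 292 CPM (289 to 294) in not stretched top cells. Its order is the same, but the bottom stood only 1.21-fold below the stretched top (1.19 to 1.24), within the threshold. PSME2 therefore made up 66.6% (66.1 to 67.2) of the UMIs of the pair among bottom cells, 56.8% (56.5 to 57.1) among stretched top cells and 57.7% (57.4 to 58.0) among not stretched top cells. PSME3, which encodes the chain of the nuclear PA28 ring, had 41.1 CPM in bottom and 39.2 CPM in stretched top cells. PSME2 has 2 named pseudogenes and PSMB7 has 1, and reads that fit both a gene and its copy could be lost or misplaced.

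Taking the 3 inducible catalytic genes as one, their share of all catalytic UMIs (6 genes) was 4.70% (4.56 to 4.85) among stretched bottom cells, 6.83% (6.71 to 6.94) among stretched top cells and 8.46% (8.34 to 8.58) among not stretched top cells. The log2 odds ratio was -0.57 for bottom over stretched top and -0.33 for stretched over not stretched top. The make-up of this share differed more than its size. Both rest on the PSMB10 count, which is uncertain because of its shared 3′ end. PSMB9 made up 18.8% of the inducible UMIs among bottom cells, 78.4% among stretched top cells and 83.1% among not stretched top cells, and PSMB10 made up 80.4%, 20.4% and 15.3% in the same order. With PSMB10 and PSMB7 left out, a choice made after the data were seen, the log2 odds ratio was -2.60 for bottom over stretched top and -0.47 for stretched over not stretched top.

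**Figure D2:**
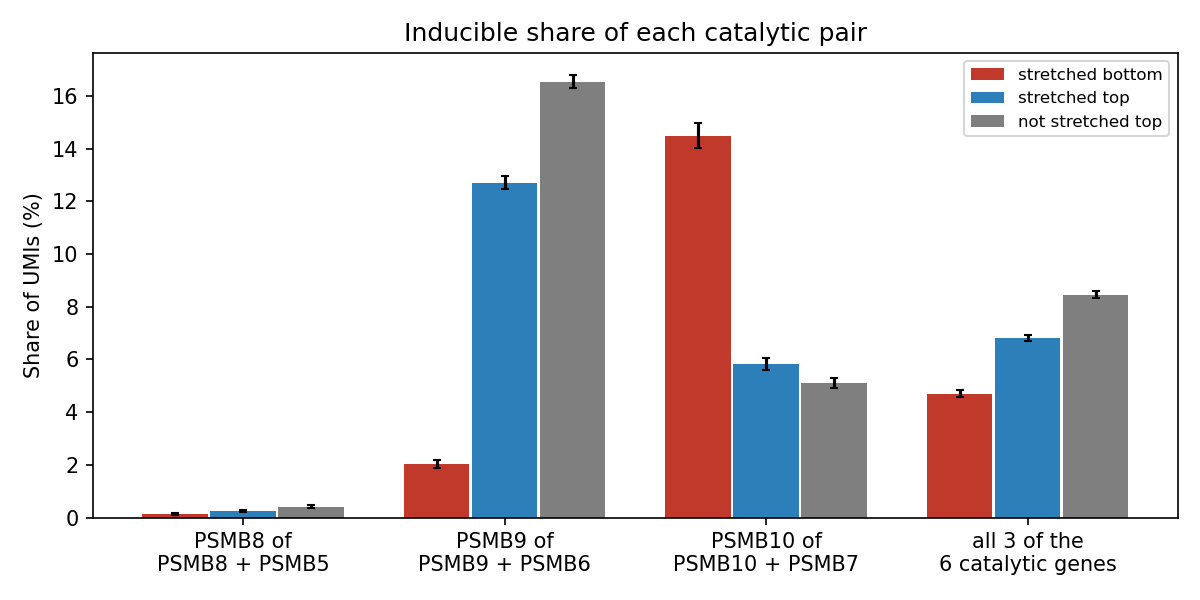
Inducible share (%) of the UMIs of each catalytic pair and of all 6 catalytic genes, by library, with Clopper-Pearson 95% intervals. PSMB9 makes up 2.03% of its pair in the stretched bottom against 12.7% and 16.5% in the stretched and not stretched top libraries, and PSMB10 goes the other way with 14.5% against 5.83% and 5.10%. The PSMB10 count is uncertain because of its shared 3′ end.

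Between stretched and not stretched top cells none of the 4 members at 10 CPM or more was past 1.5-fold in either direction. Over all 9119 genes at that level, 0.592% (54) were lower and 0.175% (16) higher, which TMM scaling turned to 10 lower and 70 higher. PSMB9 came closest, at a log2 ratio of -0.50 (1.42-fold lower, 1.38 to 1.46), and 152 of the 9119 genes had a lower ratio. PSME2 had -0.13, PSME1 -0.08 and PSMB10 -0.00, where the median of all genes was -0.16, and all 3 turned positive with TMM scaling. PSMB8, below 10 CPM, had -0.39. For stretched bottom over not stretched top cells, the comparison that differs in both channel and stretch, PSMB9 had -2.67, PSME1 -0.96, PSME2 -0.41 and PSMB10 1.67. Of the 4 members 2 were lower and 1 higher, and of all 9218 genes 20.7% (1910) were lower and 6.8% (627) higher, and 1020 and 1355 with TMM scaling. These comparisons share libraries, so they are not independent of each other.

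Shares of cells with a UMI were compared at equal depth. Cells were thinned to 3000 UMIs, which left out 242, 1205 and 1507 shallower cells of the stretched bottom, stretched top and not stretched top libraries. PSMB9 then had a UMI in 3.10% (2.33 to 4.04) of bottom cells, 12.9% (12.4 to 13.4) of stretched top cells and 17.6% (17.0 to 18.2) of not stretched top cells. Without thinning the shares were 25.9%, 32.0% and 43.6%. PSMB10 had a UMI in 10.5% (9.12 to 12.1) of bottom cells, 3.42% (3.17 to 3.69) of stretched top cells and 3.20% (2.93 to 3.48) of not stretched top cells, and 60.1%, 11.7% and 13.6% without thinning. PSME1 had a UMI in 26.3%, 44.2% and 45.8% of thinned cells in that order, and PSME2 in 46.9%, 51.7% and 54.2%. In such shares, fewer cells that make a transcript and less transcript per cell cannot be told apart.

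No cell type in these libraries is known to lack the members, so APOA1 outside the cells rich in apolipoprotein transcripts is given as a gauge of free RNA. It had a UMI in 0.117% of thinned bottom cells, 1.92% of stretched top cells and 2.28% of not stretched top cells. The bottom library held none of the 421 and 389 apolipoprotein-rich cells of the stretched and not stretched top libraries. PSMB8 had a UMI in 0.117%, 0.227% and 0.331% of thinned stretched bottom, stretched top and not stretched top cells. The gauge depends on how abundant APOA1 itself is in each library, and APOA1-rich cells were absent from the bottom, so it sets no level for PSMB8. How far free RNA makes up the few PSMB8 UMIs was not tested. Median depths before thinning were those given above. Over all 5 members the thinned cells had a median of 1 UMI in each library, and 34.2% of bottom, 25.2% of stretched top and 22.2% of not stretched top cells had none.

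Within each library, PSMB9, PSME1 and PSME2 were higher in cells with more transcripts of 23 interferon-stimulated genes (ISGs), and PSMB10 was not. Cells were ranked by the share of their UMIs from ISGs and split into quartiles. From the lowest to the highest quartile, PSMB9 had 6.87, 8.73, 9.56 and 13.5 CPM in stretched bottom cells, 15.4, 31.5, 50.2 and 96.2 CPM in stretched top cells, and 23.3, 48.4, 73.3 and 125.7 CPM in not stretched top cells. The step from quartile to quartile is thus steep in both top libraries and shallow in the bottom, where the ISG share itself is low: its median was 3.70 per 10000 UMIs in bottom cells, 38.8 in stretched top cells and 56.0 in not stretched top cells. PSME1 had 97.8 CPM in the lowest and 115 CPM in the highest quartile of bottom cells, 149 and 263 CPM in stretched top cells, and 147 and 276 CPM in not stretched top cells. PSME2 had 193 and 245 CPM in the lowest and highest quartiles of bottom cells, 192 and 352 CPM in stretched top cells, and 206 and 387 CPM in not stretched top cells. PSMB10 had 41.3 and 38.9 CPM in bottom cells, 13.2 and 11.8 CPM in stretched top cells, and 12.7 and 12.9 CPM in not stretched top cells. PSMB8 had 0.717 and 1.99 CPM in not stretched top cells and 0.623 and 0.968 CPM in stretched top cells. In bottom cells it had 0.196 and 0.847 CPM, from 3 and 15 UMIs. All quartiles of a library share its cells' ambient RNA and preparation, and this is a description with no test.

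**Figure D3:**
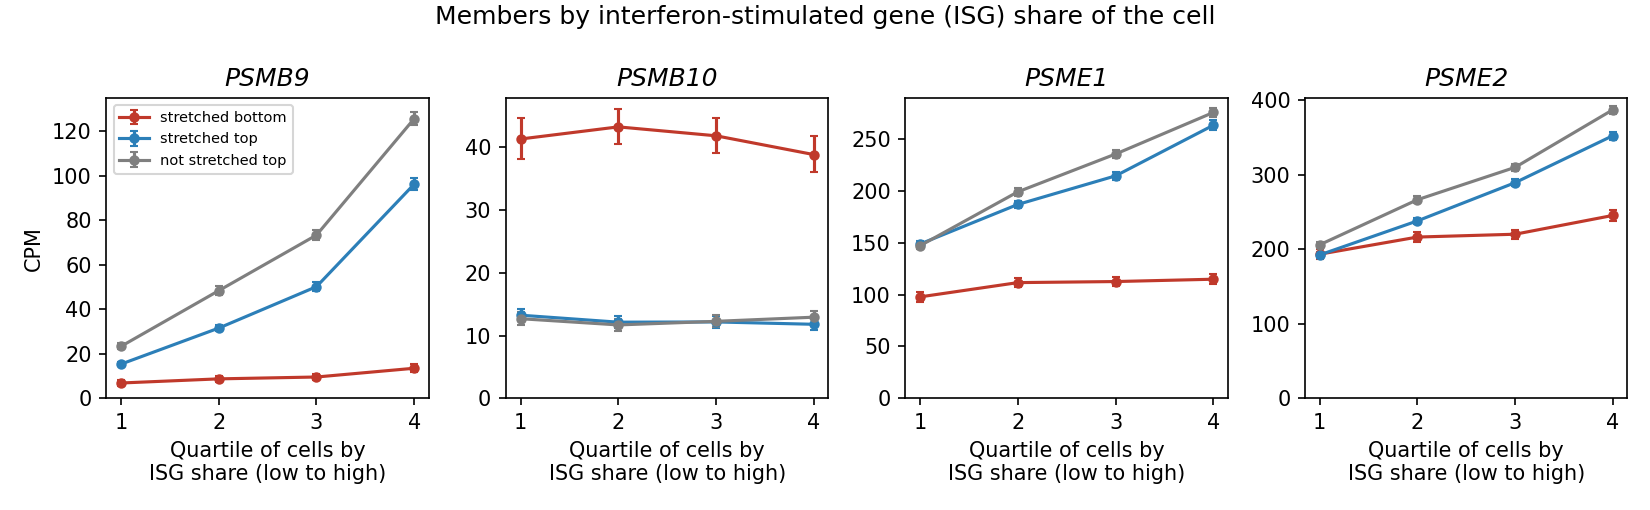
CPM of 4 members in quartiles of cells ranked by ISG share within each library, with exact Poisson 95% intervals. PSMB9 climbs to 96.2 and 125.7 CPM in the highest quartile of the stretched and not stretched top libraries and to 13.5 CPM in the stretched bottom, while PSMB10 stays between 38.9 and 43.3 CPM in the bottom and between 11.7 and 13.2 CPM in both top libraries.

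The members were also described in cells of 20000 to 60000 UMIs within bins of ISG level, chosen after the data were seen. Depth still differed inside this window: at 5 to 10 ISG UMIs per 10000, the median was 43904 UMIs in stretched bottom cells, 23792 in stretched top cells and 24520 in not stretched top cells. At 5 to 10 ISG UMIs per 10000, PSMB9 had 11.9 CPM (9.96 to 14.2) in 249 stretched bottom cells, 9.86 CPM (5.74 to 15.8) in 67 stretched top cells and 10.2 CPM (5.93 to 16.3) in 62 not stretched top cells. At 10 to 20 it had 16.1 CPM in 67 bottom cells, 16.2 CPM in 193 stretched top cells and 16.9 CPM in 139 not stretched top cells. In both bins the intervals of the 3 libraries overlap. These bins hold few top cells and follow a readout that PSMB9 moves with, so they do not say what the difference over whole libraries comes from. PSMB10 had 38.0 CPM in bottom, 13.9 CPM in stretched top and 15.6 CPM in not stretched top cells at 5 to 10, and with 28.5, 13.2 and 13.9 CPM in that order at 10 to 20. PSME1 had 108.5 CPM in bottom, 111.3 CPM in stretched top and 104.7 CPM in not stretched top cells at 5 to 10, and 124.6, 165.5 and 130.3 CPM at 10 to 20. PSME2 had 242 CPM in bottom, 174 CPM in stretched top and 165 CPM in not stretched top cells at 5 to 10. At 10 to 20 it had 251, 209 and 194 CPM in that order. In both bins it was thus highest in the bottom, opposite to its order over whole libraries. At 0 to 5, 654 bottom and 54 not stretched top cells had 8.44 and 5.41 CPM of PSMB9, the latter from 8 UMIs. In that bin PSMB10 had 39.6 and 10.8 CPM, PSME1 109.4 and 82.4 CPM, and PSME2 212 and 125 CPM. Stretched top cells there numbered 26 and were not summarised.

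**Figure D4:**
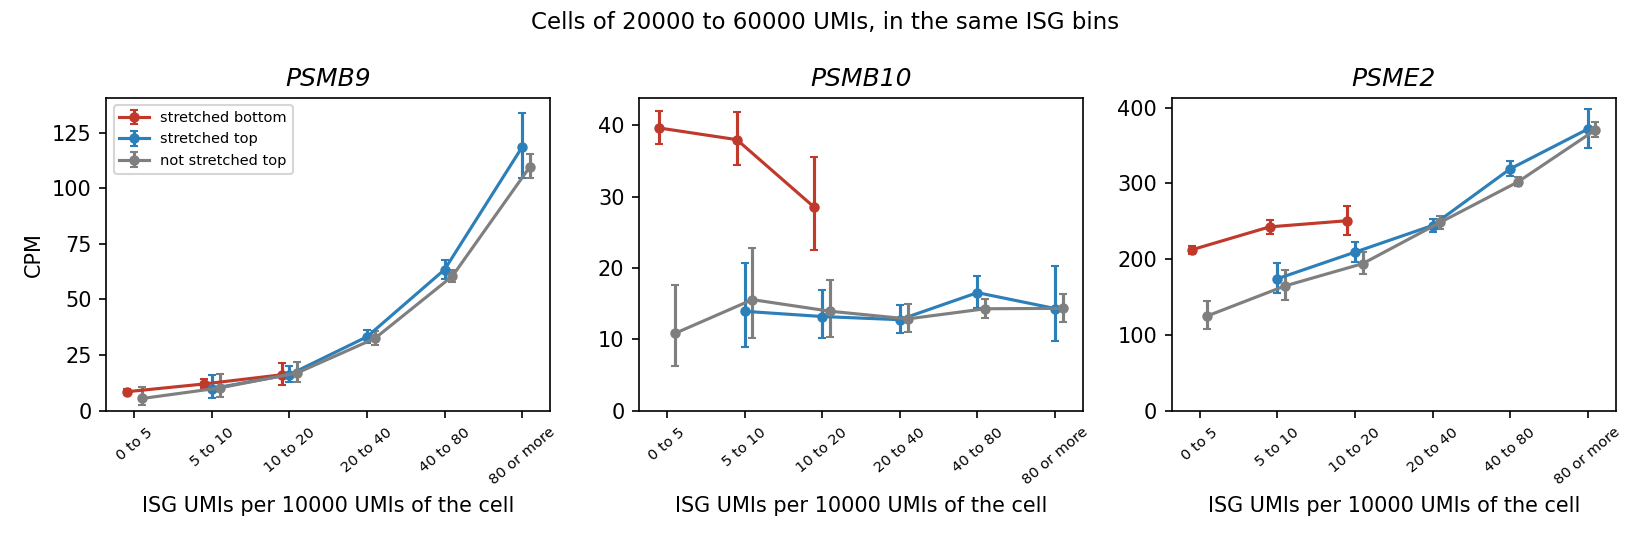
CPM of PSMB9, PSMB10 and PSME2 in cells of 20000 to 60000 UMIs binned by ISG UMIs per 10000 (bins under 50 cells not drawn), with exact Poisson 95% intervals. The PSMB9 points of the 3 libraries overlap at 5 to 10 and 10 to 20, while the stretched bottom points of PSMB10 lie at 38.0 and 28.5 CPM, above both top libraries.

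Cell cycle phase and cell quality moved with the members in places. PSMB9 had 9.33, 9.44 and 9.86 CPM in bottom cells called G1, S and G2/M, 46.9, 39.8 and 51.3 CPM in stretched top cells and 68.3, 57.7 and 71.7 CPM in not stretched top cells, so the libraries keep their order in every phase. PSMB10 was lower in bottom cells of higher mitochondrial share, with 42.9 CPM at up to 5%, 39.5 CPM at 5 to 10% and 14.5 CPM at 10 to 20%, the last over 199 cells with a median of 11335 UMIs. In stretched top cells it had 15.9, 13.7 and 10.6 CPM in the same mitochondrial classes. In the class of 10 to 20% the bottom and stretched top cells thus stood at 14.5 and 10.6 CPM. PSMB9 had 9.95, 9.64 and 3.41 CPM in these classes in the bottom, against 32.8, 44.1 and 52.3 CPM in the stretched top. The part of mitochondrial share in the differences between libraries was not tested. In cells rich in apolipoprotein transcripts, PSMB9 was lower than in the others, with 25.6 against 48.0 CPM among stretched top cells and 20.3 against 68.9 CPM among not stretched top cells. PSMB8 went the other way, with 3.56 against 0.655 CPM among stretched top and 2.45 against 1.24 CPM among not stretched top cells. The apolipoprotein-rich cells held 22 and 17 PSMB8 UMIs.

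The rest of the proteasome did not share the lower PSMB9 and PSME1 in the bottom. Over all 8870 genes 11% were lower and 7.93% higher in bottom than in stretched top cells. Of 11 other genes of the barrel none was lower and 2 were higher in bottom than in stretched top cells, with a median log2 ratio of 0.39 (all genes -0.00). These were PSMA6, an α subunit, with 20.8 against 6.94 CPM, and PSMA2, another, with 365 against 197 CPM. Of 22 genes of the regulatory cap that unfolds substrates none was lower and 5 were higher, with a median of 0.50, 4 of them only just past the threshold at 0.61 to 0.63. PSMD9, a chaperone of cap assembly, had 92.2 against 30.7 CPM, and PSMD11, a cap subunit, had 148 against 94.99 CPM. PSMA6, PSMA2 and PSMD9 share 22.6%, 23.5% and 43.6% of their last 1000 exonic bases with a counted neighbour, as PSMB10 does. Of 104 genes with 20 to 50% shared 29 (27.9%) were higher. PSMA1, of the barrel, shares 41.3% but was within 1.5-fold, with 271 against 226 CPM. The higher PSMD11 and PSMG1 share 0%. Among the 5 assembly chaperones, PSMG1 was higher (130 against 66.1 CPM), and POMP, which the immunoproteasome needs for its assembly, had 755 against 569 CPM. The 3 constitutive catalytic genes had a median of 0.30, with none past 1.5-fold. Between the 2 top libraries no gene of these lists was past 1.5-fold. Few genes of any kind were: of all 9119, 0.592% were lower and 0.175% higher.

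The genes of peptide supply to MHC class I were mostly lower in the bottom cells than in the stretched top. Of 9 at 10 CPM or more, 7 were lower and 1, the chaperone gene CALR, was higher, with a median of -0.90. Over all 8870 genes at that level, 11% were lower and 7.93% higher. TAP1, next to PSMB9, had 15.5 CPM in stretched bottom, 31.2 in stretched top and 37.8 in not stretched top cells, and TAP2, beyond PSMB8, had 18.6, 29.1 and 39.6 CPM. Among 12 interferon receptor and signalling genes, 4 were lower and 1, the receptor gene IFNGR2, was higher, with a median of -0.25. IRF1, a factor that acts on the PSMB9 and TAP1 promoter, had 10.1 CPM in bottom, 19.8 in stretched top and 22.5 in not stretched top cells. Of the 17 ISGs at 10 CPM or more all were lower in bottom than in stretched top cells, with a median of -2.56. These ISGs also defined the quartiles above, so the 2 results are not separate. Of 12 interferon gamma targets among the features, 2 reached 10 CPM, of which UBE2L6, a conjugating enzyme for ISG15, was lower (8.42 against 34.4 CPM). CXCL9 and CXCL10, interferon gamma chemokines, were at 0 in the bottom library, which allows up to 0.0391 CPM, and under 1 CPM in both top libraries. IDO1, an interferon gamma target that breaks down tryptophan, was also under 1 CPM throughout but stood highest in the bottom, with 0.574 CPM against 0.0759 in stretched top and 0.0424 in not stretched top cells. Of the other targets under 10 CPM, GBP1, GBP2, GBP3, CIITA, CD74 and HLA-DRA were lowest in the bottom. GBP1, GBP2 and CIITA had only 4, 6 and 3 UMIs in the bottom library. The GBP1 intervals of the bottom and stretched top overlap. HLA-DRA had 1.30 CPM in bottom cells against 4.72 in stretched top and 5.24 in not stretched top cells. CXCL11 had 0.0391, 0.0237 and 0.0471 CPM in that order. CXCL9, CXCL10, IDO1 and these others were named after their values were seen.

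**Figure D5:**
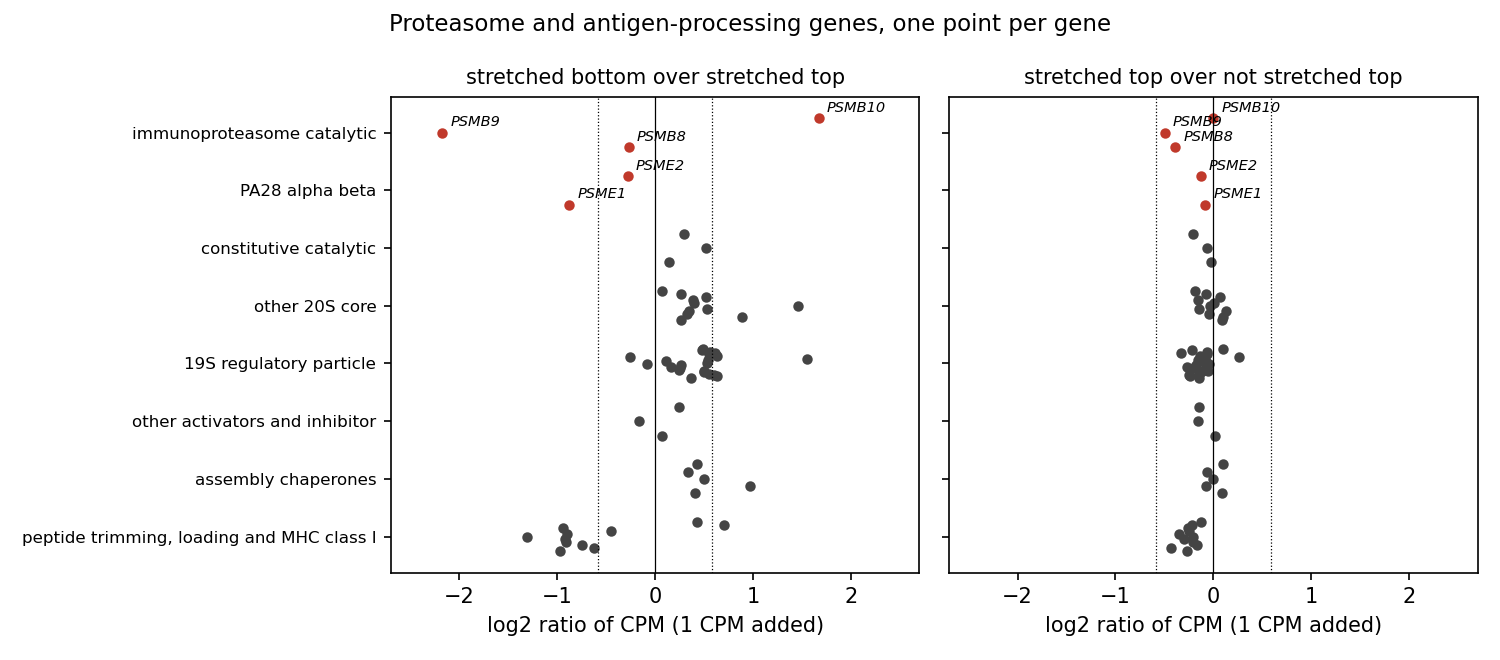
Log2 ratio of CPM (1 CPM added) for each gene of the proteasome and antigen-processing lists, stretched bottom over stretched top on the left and stretched top over not stretched top on the right; dotted lines mark 1.5-fold. On the left PSMB9 (-2.18) and PSME1 (-0.88) lie left of the line and PSMB10 (1.67) right of it. On the right no gene passes either line, where of all 9119 genes tested 0.592% were lower and 0.175% higher.

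Genes nearest to each member were named by the distance in the 2 log2 ratios, bottom over stretched top and stretched over not stretched top, among 6426 genes with a mean of at least 20 CPM over the 3 libraries. For PSMB9 they included IFI35, GRIN2B, C19orf66 and IRF7, at distances of 0.07 to 0.13, of which IFI35 is in the ISG list. For PSMB10 they were PHF5A, DKK1, PSMD9, LRP3 and RPP21, at 0.08 to 0.31. PSME1 was nearest to IER5, CUEDC1, CHPT1, ZDHHC2 and SNTB2, and PSME2 to PNRC2, GOLGA4, VPS28, RNF114 and CELF1. PSMB8, whose ratios are held near 0 by the added 1 CPM, was nearest to GRHL2, PPP1R12B, OGFR, CIRBP and KMT2C. The likeness rests on 3 libraries and says nothing of shared control.

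At single-cell level, thinned stretched top cells with a PSMB9 UMI had a mean of 0.773 PSME1 UMIs, against 0.590 in those without, and not stretched top cells had 0.816 against 0.620. For PSME2 the means were 0.979 against 0.764 in the stretched top and 1.09 against 0.802 in the not stretched top. For PSMB10 they were 0.0332 against 0.0348 and 0.0383 against 0.0314 in the same libraries. In the bottom library 53 thinned cells had a PSMB9 UMI, with a mean of 0.321 PSME1 UMIs against 0.324 in the others and 0.868 PSME2 UMIs against 0.638. The PSME2 mean was thus higher in cells with a PSMB9 UMI in all 3 libraries, and the PSME1 mean in the 2 top libraries. The bottom means rest on 53 cells and have no interval. PSMB6 means were also higher in such cells, at 1.36 against 1.31 in the bottom, 0.932 against 0.901 in the stretched top and 0.975 against 0.924 in the not stretched top. PSMB5 and PSMB7 means were lower in such cells in all 3 libraries.

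Of the chromosomal neighbours, PSME1 and PSME2 lie close together on chromosome 14 (24136158 to 24138967, plus strand, and 24143362 to 24147570, minus strand), with EMC9 between them. EMC9, a membrane protein complex subunit, had 54.1 CPM in stretched bottom, 46.9 in stretched top and 50.1 in not stretched top cells, against the lower PSME1 beside it. IRF9, a transcription factor of the interferon alpha signal, lies on the same side and had 1.33, 9.50 and 12.9 CPM, but a counted neighbour covers 56% of its last 1000 exonic bases. PSMB8 spans 32840717 to 32844703 on the minus strand of chromosome 6, PSMB9 32844136 to 32859585 on the plus strand, and PSMB10 67934502 to 67937087 on the minus strand of chromosome 16 (GENCODE 29, hg38). The 3′ counts do not tell the alternative first exons of PSMB8 apart.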

How the data were processed

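Single-cell RNA was measured in 3 libraries, 1 per group. Trypsin detachment, GFP sorting and a droplet 3′ kit are given per the labels' protocols. The authors deposited matrices of raw UMI counts from Cell Ranger 7.0.0 per the file headers, on hg38 per the submitters' processing notes; the annotation version is not given in the sources used here. Nothing says whether the libraries came from separate cultures.

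Kept cells had 500 or more genes, 1000 or more UMIs and a mitochondrial share of no more than 20%. Doublets were not removed and no caller was run. UMIs were summed over kept cells and divided by the library total (CPM). Log2 ratios have 1 CPM added, genes needed 10 CPM in either library, and 1.5-fold was the threshold, with no test. CPM intervals are exact Poisson, folds conditional binomial and shares Clopper-Pearson, at 95%, for counting error only; UMIs from one cell are not independent. A count of 0 allows 0.0391, 0.0142 and 0.0141 CPM in the stretched bottom, stretched top and not stretched top libraries, from 3 counts. Cells were thinned to 3000 UMIs for shares of cells. Phases were called with scanpy 1.11.5. TMM scaling used edgeR 4.0.16. Promoters are from RefSeq (GRCh38.p14), which gave windows for all 5 members and PSMB5, and gene positions from GENCODE 29. Library levels of all members and constitutive subunits are reported, while the splits of cells are given for some of them only. For each list, counts, the median and 2 to 4 genes with the largest ratios were to be named. Others named (such as TAP1, IRF1 and POMP) were chosen after their values were seen. The members and lists were chosen with earlier results of these data known. Values of 1 gene among the named genes are not reported here. Ratio calls and fold intervals were tested on library counts simulated with counting error only. Summing over cells was not tested.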

Additional observations from a re-analysis of the deposited data

How the results depend on the processing

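No paired analysis was possible because each group has 1 library, and for the same reason no library was left out. Over 13 alternatives for bottom over stretched top, PSMB9 ranged from -2.34 to -1.83, PSMB10 from 1.37 to 1.74 and PSME1 from -1.01 to -0.78, each past 1.5-fold in all 13, and PSME2 from -0.42 to -0.21, never past it. At 2-fold, 1 member was lower in place of 2, and for bottom over not stretched top 1 in place of 3, PSMB8 included. For stretched over not stretched top, 1 member was lower in place of 0 with the stricter cell filter (PSMB9, -0.61) and with 0.1 CPM added (PSMB8, -0.72). TMM and median of ratios scaling turned PSMB10, PSME1 and PSME2 positive there, with the median of all genes at 0.01 and 0.03.

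The log2 odds ratio of the inducible catalytic share for bottom over stretched top was -0.29 with the stricter filter, -0.46 in cells of 20000 to 60000 UMIs, -0.62 with equal cell weights and -0.67 in thinned cells, against -0.57. For stretched over not stretched top it was -0.40 with the stricter filter and -0.21 in the depth window, against -0.33. For bottom over not stretched top it was -0.70, -0.68, -0.97 and -1.04 under the same 4 settings and -0.84 with equal phase weights, against -0.90. The cause of these shifts was not tested. With IFI6 and IFI27 left out of the ISG list, PSMB9 had 12.7 CPM in the highest quartile of bottom cells, 92.0 in stretched top and 116.7 in not stretched top cells. Counts over all genes moved by over 1.5 times with median of ratios scaling, to 10 lower and 76 higher between the top libraries and to 917 and 1556 for bottom over not stretched top. Depth limits PSMB8, with 34 UMIs in the bottom library.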
